A study of Mus musculus with 26 samples.

Results

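The 10 aldo-keto reductase genes were followed by RNA sequencing of mouse liver in 26 libraries: Akr1a1, Akr1b3, Akr1b7, Akr1b8, Akr1b10, Akr1c6, Akr1c13, Akr1c14, Akr1c19 and Akr1c20. They were taken from the deposited gene count table by symbol through their Ensembl identifiers, and are 10 of its 47643 gene rows. The libraries form 10 groups in 5 experiments, and each treated group was compared with its own control only. In the first, C57BL/6J wild-type mice of 8 weeks, fed ad libitum, received corn oil (2 libraries) or TCPOBOP (2), an agonist of the constitutive androstane receptor CAR. The sample titles place the TCPOBOP livers at 36 hours after injection and the source names at 6 hours, so the time is uncertain. In the second, C57BL/6J wild-type mice (3) were compared with Fxr-/- Shp-/- mice (3), both of 12 weeks and fed ad libitum. These carry null alleles of Nr1h4, which encodes FXR, a receptor for bile acids, and of Nr0b2, which encodes the corepressor SHP. In the third, C3H/HeN mice of 8-10 weeks, fed ad libitum, were sampled at 0 hours after sham surgery (3) or 48 hours after partial hepatectomy (3), so time and surgery differ together. In the fourth, hepatocytes of C57BL/6J wild-type mice of 16 weeks after a fast of 10 hours came from chow (2) or a 60% high fat diet (2). In the fifth, C57BL/6J mice of 10-12 weeks after a fast of 8-10 hours ate chow (3) or a cholic acid diet (3). Both groups of the fifth experiment are labelled as floxed for Fxr and Shp, with no Cre named. All samples but the hepatocytes were whole liver. No label states that the libraries of a group came from separate animals, so p-values measure the spread between these libraries, which may be technical.

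Aldo-keto reductases of the Akr1 family are monomeric, mostly cytosolic enzymes that use NADPH to turn aldehydes and ketones into alcohols. In the liver they clear lipid and sugar aldehydes, feed the polyol and ascorbate pathways, and reduce ketone groups of steroids, prostaglandins and bile acid precursors. The Akr1a and Akr1b members act mainly on aldehydes, while the Akr1c members include hydroxysteroid dehydrogenases.

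Reads assigned to genes numbered 13949059 to 70367874 per library. The level of 3 counts, taken as the floor, lay between 0.0426 and 0.215 CPM by the unscaled number of reads in genes. CPM elsewhere is the read count divided by the scaled library size, so the floor differs slightly there. In floxed chow library 1, for example, 3 counts of Akr1b7 were 0.222 CPM and thus at the floor. Levels below are CPM scaled over all 26 libraries, with the SD over the libraries of a group. Changes are log2 fold changes ± SE from edgeR's quasi-likelihood test within an experiment, called raised or lowered at a Benjamini-Hochberg adjusted p under 0.05 over all genes tested. In the knockout livers Nr0b2 was 0.563 to 1.60 CPM against 13.3 to 26.9 in wild type, and Nr1h4, whose remaining reads were not resolved by exon, was 52.9 to 61.6 against 114 to 153. The library labelled corn oil 1 held 3673 CPM of Cyp2b10, the classical CAR target, against 10.0 in corn oil 2 and 2977 to 3421 under TCPOBOP. That level goes against its label, which may be wrong; it is kept in its labelled group, and no direction under TCPOBOP that rests on it is certain. The floxed chow library 3 also stood apart from its group. Calls of the members that changed without either are given with and without it. Tests of pathway genes, list medians and correlations are given only with both libraries in place. Hepatocyte markers (Alb, Apoa1, Ttr, Cps1, Hnf4a, Asgr1) summed to 43699 to 125025 CPM over all libraries.

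The 10 genes lie on 3 chromosomes of GRCm38. Akr1a1 is at chr4:116636510-116651680 on the minus strand. The Akr1b genes lie side by side on chromosome 6, with Akr1b3 at chr6:34302434-34317478 on the minus strand, then Akr1b8 at chr6:34354119-34368463, Akr1b10 at chr6:34384218-34396950 and Akr1b7 at chr6:34412334-34423142 on the plus strand. The Akr1c genes lie on chromosome 13, in the order Akr1c14 (chr13:4049011-4090688), Akr1c13 (chr13:4191150-4205596), Akr1c19 (chr13:4228700-4252843) and Akr1c6 (chr13:4434306-4457877), all on the plus strand, and Akr1c20 (chr13:4486849-4523345) on the minus strand. Coding sequences were 71.9% to 89.2% identical within the Akr1b genes and 73.0% to 92.3% within the Akr1c genes, and 56.0% to 58.2% between them. The closest pairs were Akr1c6 with Akr1c20 (92.3%) and Akr1b7 with Akr1b10 (89.2%).

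Reads of close copies can be lost or split in counting. Of the 50-base stretches of the GENCODE M21 transcript, 86.2% of Akr1b3, 28.6% of Akr1c13 and 15.8% of Akr1b7 also occur in transcripts of another gene, against 2.08% for Akr1c6, 2.17% for Akr1c20 and 3.21% for Akr1b8. At 100 bases the shares were 74.0% for Akr1b3, 11.5% for Akr1c13, shared with Akr1c12, and 0.931% for Akr1b7. None of the Akr1a1, Akr1b8, Akr1b10, Akr1c6 or Akr1c20 stretches of 100 bases was shared. The read length is not given in the sources used here. Akr1b3 levels are therefore the least certain of the 10.

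Akr1b7, Akr1b8 and Akr1b10 are shown upstream because they are neighbours with closely related coding sequence and were not called in the same comparisons. No test compared these genes with each other. The 220 bases that start 250 before the RefSeq start site (GRCm38.p6, plus strand) are Akr1b8 at chr6:34353896-34354115, Akr1b10 at chr6:34383997-34384216 and Akr1b7 at chr6:34412112-34412331. Capitals mark AGGTCA, the half-site that many nuclear receptors bind, found here as its reverse complement.
Akr1b7: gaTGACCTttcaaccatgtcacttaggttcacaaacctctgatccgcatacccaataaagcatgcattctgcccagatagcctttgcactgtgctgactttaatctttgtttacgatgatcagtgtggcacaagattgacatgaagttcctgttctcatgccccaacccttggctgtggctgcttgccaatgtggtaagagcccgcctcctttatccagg
Akr1b10: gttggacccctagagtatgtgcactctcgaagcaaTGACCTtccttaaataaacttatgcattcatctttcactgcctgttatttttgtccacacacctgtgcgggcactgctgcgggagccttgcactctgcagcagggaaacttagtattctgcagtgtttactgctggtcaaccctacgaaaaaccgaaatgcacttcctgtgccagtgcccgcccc
Akr1b8: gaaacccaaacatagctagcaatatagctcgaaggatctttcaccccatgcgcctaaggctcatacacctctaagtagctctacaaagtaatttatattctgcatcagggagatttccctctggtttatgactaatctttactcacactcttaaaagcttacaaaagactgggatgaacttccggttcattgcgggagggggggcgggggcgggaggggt
The half-site was searched on both strands in the windows of the 8 members matched in the promoter table used here; Akr1b3 and Akr1c20 were not analysed. It occurred once in Akr1b7, 248 bases before the start, and once in Akr1b10, 215 bases before it. Windows of the other 6, Akr1b8 among them, do not hold these letters. Among windows of all 32851 promoters, 12.5% hold the half-site. TGACNNNGC, the core of the antioxidant response element, was in none of the 8 member windows and in 8.70% of all promoters. These matches are descriptions of the letters in the windows.

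Per kilobase of exon, Akr1c6 was the most abundant member in all 10 groups, from 252 ± 50.3 CPM per kb (SD, n = 3) in Fxr-/- Shp-/- liver to 717 ± 111 (n = 2) under TCPOBOP. It encodes a hydroxysteroid dehydrogenase acting at carbon 17. Akr1c14, a 3-alpha-hydroxysteroid dehydrogenase, and Akr1a1, the aldehyde reductase that makes gulonate for ascorbate synthesis, held places 2 and 3. Akr1c14 lay between 102 ± 19.5 and 288 ± 20.4 CPM per kb. Akr1a1 lay between 114 ± 1.33 and 163 ± 13.7, a ratio of 1.43, the smallest of the 10 members. Akr1c13, Akr1c20 and Akr1c19 followed at 10.2 to 71.8. Akr1b8, Akr1b10 and Akr1b3, the aldose reductase, stayed at or under 2.26 CPM per kb in every group. Akr1b7 spanned 0.152 ± 0.129 in chow hepatocytes to 56.7 ± 47.2 in cholic acid liver, and ranked between place 5 and place 9. Strain, age, feeding and tissue differ between experiments, so this order across groups is a description. The exon union was 8384 bases for Akr1b3, 3535 for Akr1b10 and 2750 for Akr1a1. The coding transcripts compared above have 1387, 1371 and 1420 bases. Levels per kb, the order among members and the shares below therefore depend on the length used, and other lengths were not tried.

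**Figure D1:**
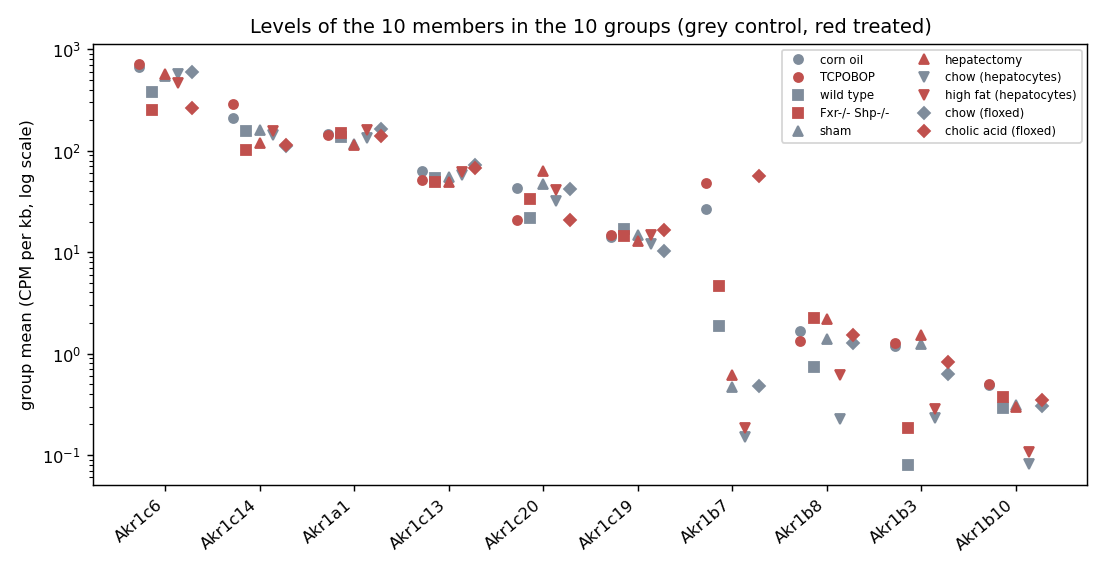
Group mean level of each member in CPM per kb of exon (log axis); each experiment has its own marker shape, with controls in grey and treated groups in red. Akr1c6 is highest in all 10 groups, and the Akr1b7 points spread from 0.152 to 56.7.

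As a share of the summed CPM per kb of the 10 genes, Akr1c6 made up 58.7% ± 3.88 (SD, n = 3) in floxed chow liver and 39.0% ± 7.93 (n = 3) in cholic acid liver. Wild-type liver had 49.6% ± 3.51 and Fxr-/- Shp-/- liver 41.3% ± 2.09 (n = 3 each). Akr1b7 made up 0.0442% ± 0.0200 in floxed chow liver and 8.04% ± 6.13 in cholic acid liver. The shares of Akr1c6 and of Akr1b7 did not overlap between chow and cholic acid libraries. In all other groups but corn oil and TCPOBOP the Akr1b7 share was under 1.06% in each library.

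All 10 members passed the filter on low counts in every comparison. In Fxr-/- Shp-/- liver 6 of 10 members were called. The background there was 40.4% of 13473 genes called in either direction, 2823 raised and 2618 lowered. Akr1b3, Akr1b7, Akr1b8 and Akr1c20 were raised there and Akr1c6 and Akr1c14 lowered. Reads aligned to several places made up 43.2% to 44.1% of wild-type libraries and 25.5% to 26.9% of knockout libraries. This share and genotype thus differed together, and its part in the calls was not tested. After hepatectomy 1 was raised (Akr1c20; background 16.4%) and 1 lowered (Akr1c14; 14.3%). On the high fat diet 1 was raised (Akr1b8; background 12.9%) and 1 lowered (Akr1c6; 11.1%). On cholic acid 1 was raised (Akr1b7; background 2.27%) and 0 lowered (background 2.50%), with 3 members at an unadjusted p under 0.05 by edgeR and 2 lowered by DESeq2's Wald test. After hepatectomy and on high fat diet these shares lie near the background, and 1 or 0 of 10 on cholic acid cannot be told from it as a share. Under TCPOBOP 0 members and 0% of 12785 genes were called by edgeR. At an unadjusted p under 0.05 there were 751 genes, 1 of them a member (Akr1c20), and DESeq2's Wald test called 109 genes, again with Akr1c20. The knockout and cholic acid effects differed for 2 members (Akr1b7, Akr1c20), where 13.9% of 13935 genes differed, and the hepatectomy effect exceeded the cholic acid effect for 2 (Akr1c6, Akr1c20; background 8.01% of 13985 genes) and fell short of it for 1 (Akr1b7; background 5.01%); both tests share the 6 libraries of the cholic acid experiment. The experiments compared there also differ in feeding, age and floxed alleles, and for hepatectomy in strain, which these tests cannot separate from the treatment. The median log2 change of the 10 members was 0.26 in the knockout, 0.25 on high fat diet, 0.13 on cholic acid, 0.03 under TCPOBOP and 0.01 after hepatectomy, beside -0.02 to 0.01 over all genes tested.

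**Figure D2:**
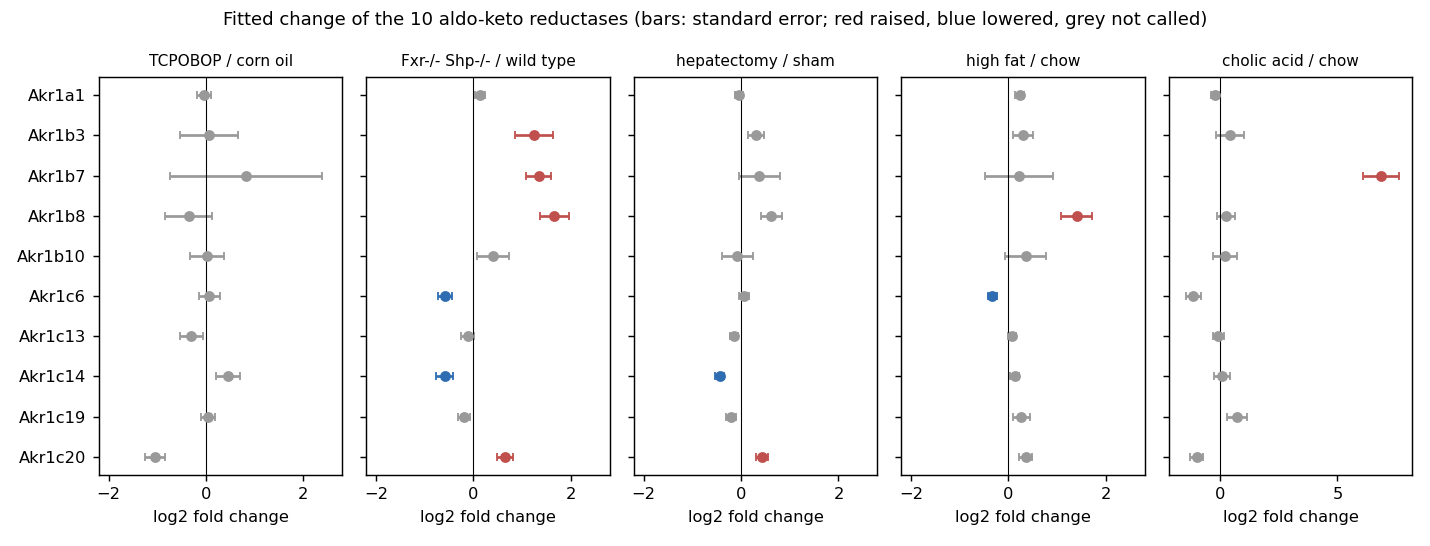
Fitted log2 fold change of each member (points) with its standard error (bars) in the 5 comparisons; red is raised, blue lowered and grey not called. The cholic acid panel has a wider axis, since Akr1b7 lies at 6.86 there, and the knockout panel holds 6 coloured points.

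Akr1b7 reduces aldehydes from lipid peroxidation and steroid side-chain cleavage, and is known as a target of xenobiotic and bile acid receptors in mouse liver. In floxed chow liver its level was 0.222, 0.475 and 1.16 CPM (3, 7 and 16 counts), and in cholic acid liver 36.1, 142 and 39.4 CPM (715, 2642 and 827 counts). The lowest cholic acid library was above the highest chow library by more than an order of magnitude. Mean levels differed 117-fold, and Akr1b7 was raised by 6.86 ± 0.77 (edgeR adjusted p = 0.00423). Cholic acid library 2 set much of the spread within its group, and without it the change was 5.92. Without floxed chow library 3, which holds 16 of the control counts, it was 7.65. Leaving out each library in turn kept the call in 6 of 6 fits. Markers of adrenal and gut, where the enzyme is abundant, (Cyp11a1, Star, Vil1) summed to 1.56 to 1.67 CPM in cholic acid liver and 0.580 to 1.29 in chow liver, with Cyp11a1 at 0 in all chow libraries; their part in the Akr1b7 result was not tested.

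Fxr-/- Shp-/- liver showed a smaller Akr1b7 change. Levels were 1.91, 1.87 and 3.35 CPM in wild type and 5.46, 5.39 and 6.87 in the knockout. The groups did not overlap. Akr1b7 was raised by 1.34 ± 0.25 (edgeR adjusted p = 0.00333), a call kept in 6 of 6 fits with 1 library left out and lost when all 26 libraries shared 1 estimate of the spread (adjusted p = 0.262). The knockout effect minus the cholic acid effect was -5.52 ± 0.85 on the log2 scale (edgeR test of the difference, adjusted p = 0.00131). That test was past the threshold in 12 of 12 fits with 1 library left out.

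In the TCPOBOP experiment Akr1b7 split the corn oil libraries. The library labelled corn oil 1 held 67.8 CPM (1230 counts) and corn oil 2 held 0.611 CPM (11 counts), a ratio of 111. TCPOBOP libraries held 72.4 and 50.1 CPM, so only corn oil 2 lay below them. With both controls the change was 0.83 ± 1.56 (edgeR adjusted p = 0.981). Without the library labelled corn oil 1 it was 6.62 ± 0.36 (adjusted p = 4.88e-05), and without corn oil 2 it was -0.16; in each of these fits the lone control is assumed to vary like the TCPOBOP libraries. Cyp2b10 was likewise low in corn oil 2 alone. In cholic acid liver Cyp2b10 was 27.5, 343 and 107 CPM, highest in library 2 as Akr1b7 was, and in Fxr-/- Shp-/- liver 272 to 395 against 25.9 to 60.8 in wild type.

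Elsewhere Akr1b7 was at 1.28 CPM or less. Sham liver held 0.548, 0.497 and 0.768 CPM and hepatectomy liver 1.28, 0.551 and 0.514, with overlapping groups and a change of 0.37 ± 0.42 (edgeR adjusted p = 0.542). Hepatocytes held 0.0774 and 0.311 CPM on chow and 0.315 and 0.153 on high fat diet, again overlapping, at 0.21 ± 0.70 (adjusted p = 0.850). The hepatectomy effect minus the cholic acid effect was -6.48 ± 1.00 (edgeR adjusted p = 0.00162), in 12 of 12 fits with 1 library left out. Ordered by group mean, Akr1b7 ran from cholic acid (72.7) over TCPOBOP (61.3), corn oil (34.2, from 67.8 and 0.611), Fxr-/- Shp-/- (5.90), wild type (2.38), hepatectomy (0.782), floxed chow (0.619), sham (0.604) and high fat hepatocytes (0.234) to chow hepatocytes (0.194). Neighbours in that order did not overlap between Fxr-/- Shp-/- and wild type, wild type and hepatectomy, and sham and high fat hepatocytes, and overlapped elsewhere.

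**Figure D3:**
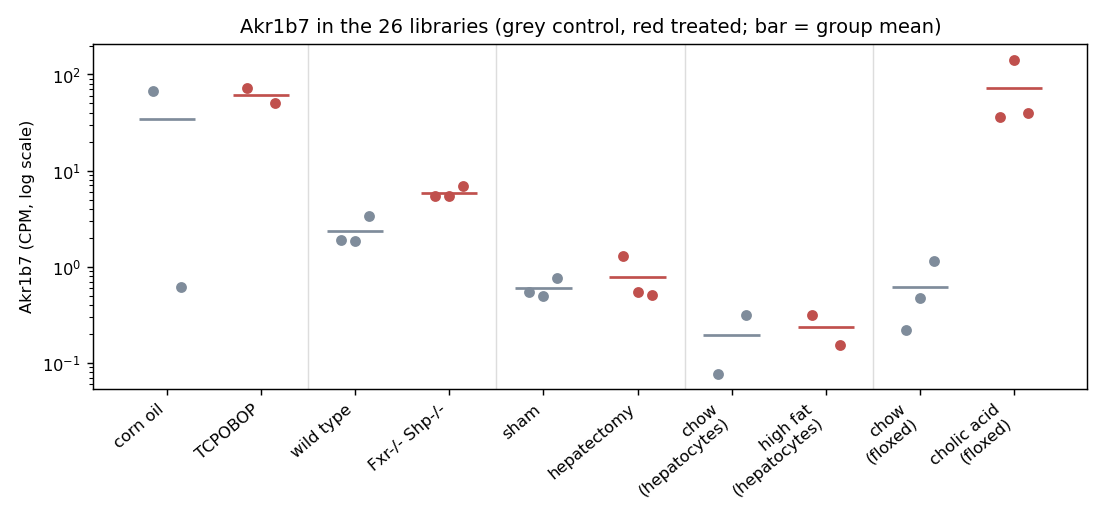
Akr1b7 level in CPM (log axis) in each of the 26 libraries, by group; bars are group means, controls grey and treated groups red. The 3 cholic acid libraries lie at 36.1 to 142 CPM against at most 1.16 in their controls, and the corn oil libraries lie at 67.8 and 0.611.

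Akr1b8, an aldehyde reductase closely related to human AKR1B10, was scarce but changed in 2 comparisons. Wild-type liver held 0.671, 1.38 and 1.24 CPM (13, 23 and 21 counts). Fxr-/- Shp-/- liver held 4.16, 2.87 and 3.15 CPM (96, 65 and 77 counts). All knockout libraries were above all wild-type libraries, and Akr1b8 was raised by 1.66 ± 0.30 (edgeR adjusted p = 0.00294), in 6 of 6 fits with 1 library left out. In the same livers 4 of 6 bile duct markers and 4 of 5 stellate markers were raised, with bile duct sums of 55.0 to 129 CPM against 26.9 to 36.5 and stellate sums of 342 to 391 against 148 to 245. Sinusoidal endothelium had 2 of 5 markers raised (107 to 155 CPM against 58.6 to 109.9), macrophages 1 of 5 (123 to 269.9 against 88.3 to 175), and leukocytes 1 of the 2 tested (14.6 to 31.4 against at most 8.47). Over all 13473 genes tested there, 2823 were raised and 2618 lowered. Whether these markers contribute to the Akr1b8 level was not tested. In bulk samples, fewer cells of a type and less RNA per cell cannot be told apart.

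Hepatocytes held 0.407 and 0.277 CPM of Akr1b8 on chow and 0.945 and 0.888 on high fat diet, without overlap. Akr1b8 was raised by 1.40 ± 0.32 (edgeR adjusted p = 0.0314), but the call held only when chow library 1 was the one left out, and adjusted p was 0.0966 without chow library 2, 0.137 without high fat library 1 and 0.105 without high fat library 2. Markers of sinusoidal endothelium (5 of 5 raised, sums 94.7 to 97.8 CPM against 37.9 to 39.8), of stellate cells (4 of 5, 26.1 to 30.1 against 7.39 to 11.3) and of macrophages (4 of 5, 44.3 to 47.0 against 23.6 to 25.9) were also higher in the high fat samples. Over all genes tested there, 12.9% were raised. The part of these markers in the Akr1b8 result was not tested. Sham liver held 2.10, 2.25 and 1.97 CPM and hepatectomy liver 2.39, 3.80 and 3.57. The groups did not overlap, yet the change of 0.63 ± 0.22 missed the threshold (edgeR adjusted p = 0.0619) and passed at 0.81 without hepatectomy library 1 (adjusted p = 0.0200). On cholic acid (1.73 to 2.78 CPM against 1.29 to 2.61) and under TCPOBOP (1.22 and 2.73 against 2.92 and 2.11) the groups overlapped, at 0.24 ± 0.37 and -0.36 ± 0.49. The knockout effect minus the cholic acid effect on Akr1b8 was 1.42 ± 0.48 (edgeR adjusted p = 0.0689). It passed with DESeq2's Wald test (adjusted p = 0.0334) and without floxed chow library 2 (edgeR adjusted p = 0.0461).

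Akr1b3, which converts glucose to sorbitol, held 0.413, 0.482 and 1.12 CPM in wild type (8, 8 and 19 counts). In Fxr-/- Shp-/- liver it held 1.73, 1.19 and 1.72 CPM (40, 27 and 42 counts). The groups were apart by a narrow margin, and it was raised by 1.24 ± 0.39 (edgeR adjusted p = 0.0337). That call was lost without wild type 1 (adjusted p = 0.124), wild type 2 (0.108), knockout 1 (0.0965) or knockout 3 (0.0550), and also with all 26 libraries in 1 fit (0.152). Reads aligned to several places made up 43.2% to 44.1% of wild-type libraries and 25.5% to 26.9% of knockout libraries, against 16.6% to 25.1% in the other experiments. Whether this bears on Akr1b3, with its many shared stretches, or on the other members called in the knockout was not tested.

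On cholic acid Akr1b3 turned on 1 control library. Floxed chow liver held 2.67, 1.70 and 11.4 CPM and cholic acid liver 6.57, 8.09 and 6.25. With chow library 3 the change was 0.41 ± 0.61 (edgeR adjusted p = 0.723), and without it 1.68 ± 0.29 (adjusted p = 0.0138). Under TCPOBOP it again depended on the corn oil libraries, at 15.8 and 4.34 CPM, against 10.3 and 10.8. The change was 0.06 ± 0.60 with both controls, 1.28 ± 0.24 without the library labelled corn oil 1 (adjusted p = 0.0152) and -0.59 without corn oil 2 (adjusted p = 0.157). After hepatectomy the levels were 14.5, 9.91 and 14.2 CPM against 10.0, 10.5 and 10.8 in sham, an overlap, with 0.31 ± 0.16 (adjusted p = 0.180); without hepatectomy library 2 it was raised by 0.46 (adjusted p = 0.0236). In high fat hepatocytes the change was 0.30 ± 0.20 (adjusted p = 0.324).

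Akr1b10 was called in 0 of 5 comparisons, with fitted changes from -0.07 to 0.40 and group means from 0.287 to 1.78 CPM. Its unadjusted p in the 5 edgeR fits was between 0.267 and 0.951. DESeq2's Wald test gave it no adjusted p under TCPOBOP and did not call it in the other comparisons. In Fxr-/- Shp-/- liver its 95% interval reached from -0.37 to 1.16, which does not exclude a change of more than 2-fold. Thus of 3 adjacent, related genes on cholic acid, Akr1b7 alone was called, with Akr1b8 at 0.24 ± 0.37 and Akr1b10 at 0.20 ± 0.52. Without floxed chow library 3 these were 0.53 ± 0.37 and 0.95 ± 0.43, also not called (edgeR adjusted p = 0.370 and 0.185). The differences between these genes were not tested.

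Akr1a1 was called in 0 of 5 comparisons by edgeR and by DESeq2, with unadjusted p between 0.0564 and 0.788. Its changes lay between -0.23 ± 0.15 on cholic acid and 0.23 ± 0.10 on high fat diet. The 26 libraries held 305 to 484 CPM. Hepatocytes held 470 and 413 CPM on high fat diet and 369 and 371 on chow, and floxed liver 362, 392 and 395 on cholic acid and 409, 455 and 484 on chow. Both pairs of groups were apart without a call (edgeR adjusted p = 0.136 and 0.406). The 95% interval of the hepatectomy change, -0.22 to 0.15, was the narrowest for this gene.

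Akr1c6, the hydroxysteroid dehydrogenase that leads the family by level, was lower in 3 of the treated groups than in their controls. Wild-type liver held 860, 726 and 751 CPM and Fxr-/- Shp-/- liver 518, 612 and 408. The groups did not overlap, and Akr1c6 was lowered at -0.58 ± 0.15 (edgeR adjusted p = 0.0155). Without wild type 1 the adjusted p was 0.0616, and in the 5 other fits the call held. Of 6 hepatocyte markers 2 were lowered in the same livers (median -0.42), where 2618 of 13473 genes were lowered. Marker sums were 59990 to 80325 CPM in the knockout against 81784 to 109308 in wild type. The part of these markers in the Akr1c6 and Akr1c14 results was not tested. On high fat diet 2 of 6 hepatocyte markers were also lowered (median -0.23), where 11.1% of all genes tested were lowered. Their sums overlapped, at 92596 to 93213 CPM against 90528 to 94464 on chow, and their part in the Akr1c6 result was not tested. High fat hepatocytes held 908 and 977 CPM of Akr1c6 against 1164 and 1158 on chow, without overlap. A change of -0.33 ± 0.09 was called (edgeR adjusted p = 0.0460). It was called in 0 of 4 fits with 1 library left out, at adjusted p from 0.0788 (without high fat library 2) over 0.0975 (chow library 2) and 0.111 (chow library 1) to 0.187 (high fat library 1).

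On cholic acid Akr1c6 was 499, 449 and 671 CPM against 866, 907 and 1840 on chow. Every cholic acid library was below every chow library, but chow library 3 held about 2 times the level of its group mates. The change of -1.16 ± 0.32 missed the threshold by edgeR (adjusted p = 0.0795). It passed by DESeq2's Wald test (-1.17, adjusted p = 0.00607), without a filter on low counts (0.0219) and with all 26 libraries in 1 fit (0.00101). Without chow library 3 it was -0.72 ± 0.20 (adjusted p = 0.0575). Sham and hepatectomy libraries overlapped, at 1021 to 1254 and 1077 to 1239 CPM, with 0.06 ± 0.10. The hepatectomy effect exceeded the cholic acid effect by 1.22 ± 0.37 (edgeR adjusted p = 0.0455), a call that held in 4 of 12 fits with 1 library left out and was lost without any 1 of the 3 sham or 3 hepatectomy libraries or cholic acid library 1 or 2 (adjusted p up to 0.113). Corn oil libraries held 1372 and 1383 CPM and TCPOBOP libraries 1617 and 1297, an overlap. Their change was 0.07 ± 0.22.

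Akr1c14, which reduces 3-keto steroids such as dihydrotestosterone, was lowered in 2 experiments. It was 435, 593 and 495 CPM in wild type and 355, 380 and 260 in Fxr-/- Shp-/- liver, without overlap, and lowered at -0.59 ± 0.17 (edgeR adjusted p = 0.0214). Without wild type 2 the adjusted p was 0.0723, and with all 26 libraries in 1 fit 0.0582. Sham liver held 545, 520 and 488 CPM and hepatectomy liver 354, 422 and 374, again apart. There Akr1c14 was lowered at -0.43 ± 0.09 (edgeR adjusted p = 0.00907) in 6 of 6 fits with 1 library left out, and not with all 26 libraries in 1 fit (adjusted p = 0.217). Of the hepatocyte markers 3 of 6 were lowered after hepatectomy (median -0.28), where 14.3% of all genes tested were lowered. Marker sums were 90581 to 101834 CPM against 119034 to 125025 in sham, and their part was not tested. Under TCPOBOP Akr1c14 was 979 and 886 CPM against 796 in the library labelled corn oil 1 and 555 in corn oil 2. The change was 0.45 ± 0.25 with both controls (adjusted p = 0.895) and 0.74 ± 0.16 without the library labelled corn oil 1 (adjusted p = 0.0226). Hepatocyte levels were 521 and 503 CPM on high fat diet and 443 and 479 on chow, at 0.12 ± 0.09 (adjusted p = 0.330). Chow and cholic acid overlapped, at 233 to 548 and 262 to 462 CPM.

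Akr1c20, whose coding sequence is closest to that of Akr1c6, moved in the other direction in the knockout. Wild-type liver held 42.9, 37.3 and 39.9 CPM and Fxr-/- Shp-/- liver 70.1, 70.7 and 45.1, above wild type in each library. It was raised by 0.65 ± 0.17 (edgeR adjusted p = 0.0137), with the call lost without wild type 2 (adjusted p = 0.0527), knockout 1 (0.0533) or knockout 2 (0.0545). After hepatectomy it was 95.8, 122 and 133 CPM against 90.4, 83.7 and 86.4, without overlap, and raised by 0.43 ± 0.12 (edgeR adjusted p = 0.0295). This call was kept only without hepatectomy library 1 and lost in the 5 other fits with 1 library left out, at adjusted p from 0.0592 without sham 1 to 0.109 without sham 2. With sham 3 left out it was 0.0962, with hepatectomy library 2 left out 0.0866 and with hepatectomy library 3 left out 0.0620.

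On cholic acid Akr1c20 lay at 43.4, 35.9 and 35.9 CPM against 59.2, 57.3 and 117 on chow. No library of the groups overlapped. The change of -1.02 ± 0.28 missed the threshold (edgeR adjusted p = 0.0797), passed with DESeq2's Wald test (adjusted p = 0.0119) and passed at -0.60 ± 0.13 without chow library 3 (adjusted p = 0.0320). TCPOBOP libraries held 35.6 and 42.2 CPM against 68.5 in the library labelled corn oil 1 and 91.7 in corn oil 2. The groups did not overlap, so here both corn oil libraries, including the one with high Cyp2b10, stood above both TCPOBOP libraries. The change was -1.05 ± 0.20 (edgeR unadjusted p = 0.00386, adjusted p = 0.679), and DESeq2's Wald test called it (adjusted p = 0.0101). It was -1.24 ± 0.15 without the library labelled corn oil 1 (edgeR adjusted p = 0.00183) and -0.82 ± 0.15 without corn oil 2 (adjusted p = 0.0255), each with a lone control. High fat hepatocytes held 71.6 and 81.8 CPM against 52.6 and 65.3 on chow, at 0.35 ± 0.13 (adjusted p = 0.0945), and without chow library 2 at 0.50 (adjusted p = 0.0320).

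The effects on Akr1c20 differed between experiments by direct test, which cannot separate the treatment from feeding, age, strain or floxed alleles. The knockout effect exceeded the cholic acid effect by 1.68 ± 0.36 (edgeR adjusted p = 0.00915), and the hepatectomy effect exceeded it by 1.45 ± 0.34 (adjusted p = 0.0146). Each was called in 12 of 12 fits with 1 library left out, including those without chow library 3, where the differences were 1.25 and 1.03. For Akr1c6 the knockout effect minus the cholic acid effect was 0.58 ± 0.39 (adjusted p = 0.352).

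**Figure D4:**
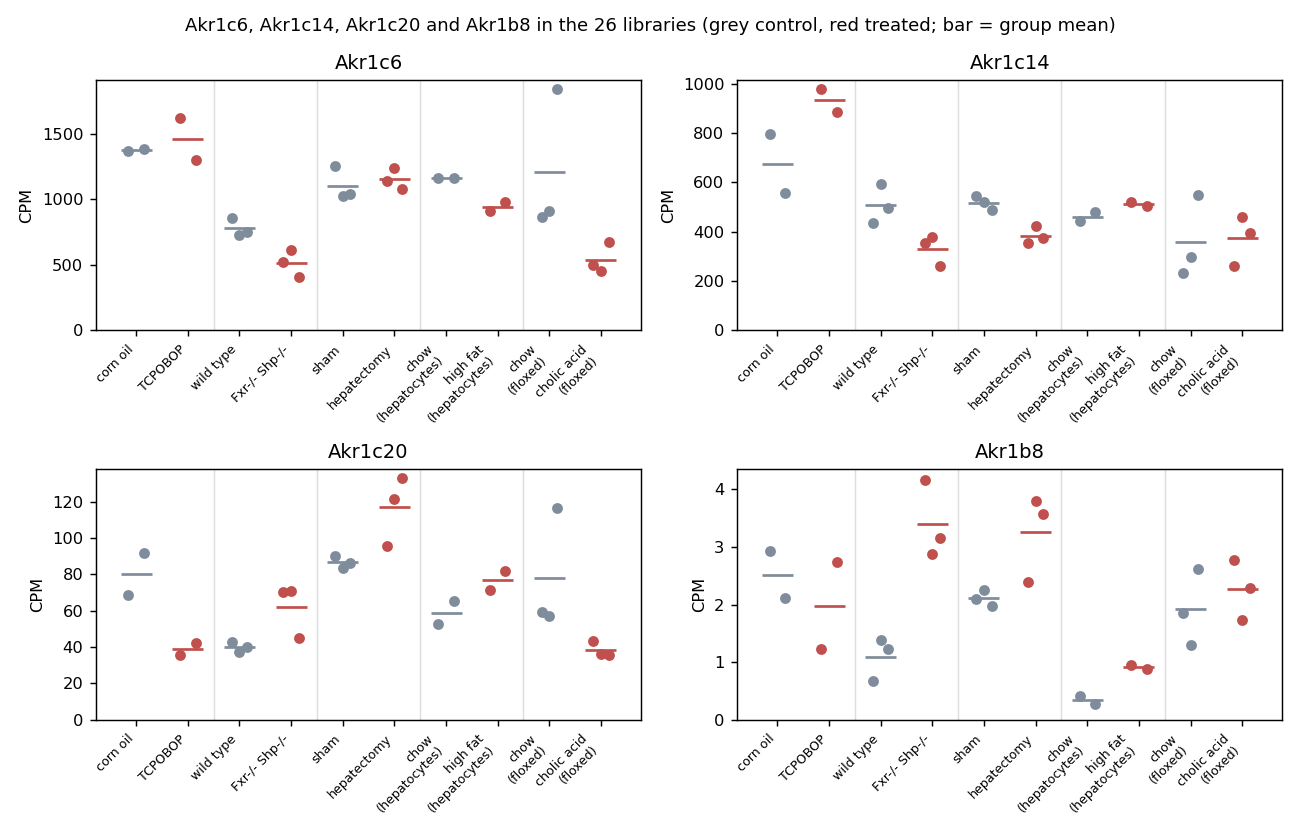
Levels in CPM of Akr1c6, Akr1c14, Akr1c20 and Akr1b8 in each library by group (linear axes from 0); bars are group means, controls grey and treated groups red. Akr1c20 is below its controls under TCPOBOP and on cholic acid and above them in the knockout and after hepatectomy, while floxed chow library 3 lies at 1840 CPM of Akr1c6 against 866 and 907.

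Akr1c13 and Akr1c19 were called in 0 of 5 comparisons by edgeR and by DESeq2's Wald test, and at an unadjusted p under 0.05 in 0 of 5. Akr1c13, whose stretches are partly shared with Akr1c12, changed by -0.30 ± 0.23 to 0.07 ± 0.08, with group means of 70.5 to 103 CPM. Without the library labelled corn oil 1 it was -0.56 ± 0.13 under TCPOBOP (adjusted p = 0.0292). Akr1c19 was 37.0, 38.2 and 104 CPM on floxed chow and 71.7, 130 and 93.0 on cholic acid. The groups overlapped through chow library 3 alone. Its change was 0.71 ± 0.42 (edgeR adjusted p = 0.345), and 1.38 ± 0.24 without that library (adjusted p = 0.0147). In the knockout it was -0.20 ± 0.12, and called at -0.31 without wild type 2 (adjusted p = 0.0466). In high fat hepatocytes it was 0.27 ± 0.17, and called at 0.53 without chow library 2 (adjusted p = 0.0287).

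The library labelled corn oil 1 and floxed chow library 3 thus set several of these results. Without the library labelled corn oil 1, 5 members were called under TCPOBOP (Akr1b3, Akr1b7 and Akr1c14 raised, Akr1c13 and Akr1c20 lowered), where 1233 genes or 9.35% of those tested were called, and without corn oil 2, 1 member, where 413 genes or 3.14% were. Without floxed chow library 3, 4 members were called on cholic acid (Akr1b3, Akr1b7 and Akr1c19 raised, Akr1c20 lowered), where 1345 genes or 10.4% of those tested were called, against 600 or 4.77% with it. In that library all 10 members were above both other chow libraries. Without it the knockout effect minus the cholic acid effect was also called for Akr1c14 (-1.08, edgeR adjusted p = 0.0404) and Akr1c19 (-1.58, 0.00275), and the hepatectomy effect minus the cholic acid effect for Akr1b3 (-1.37, 0.0113), Akr1c14 (-0.93, 0.0357) and Akr1c19 (-1.59, 0.00304).

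**Figure D5:**
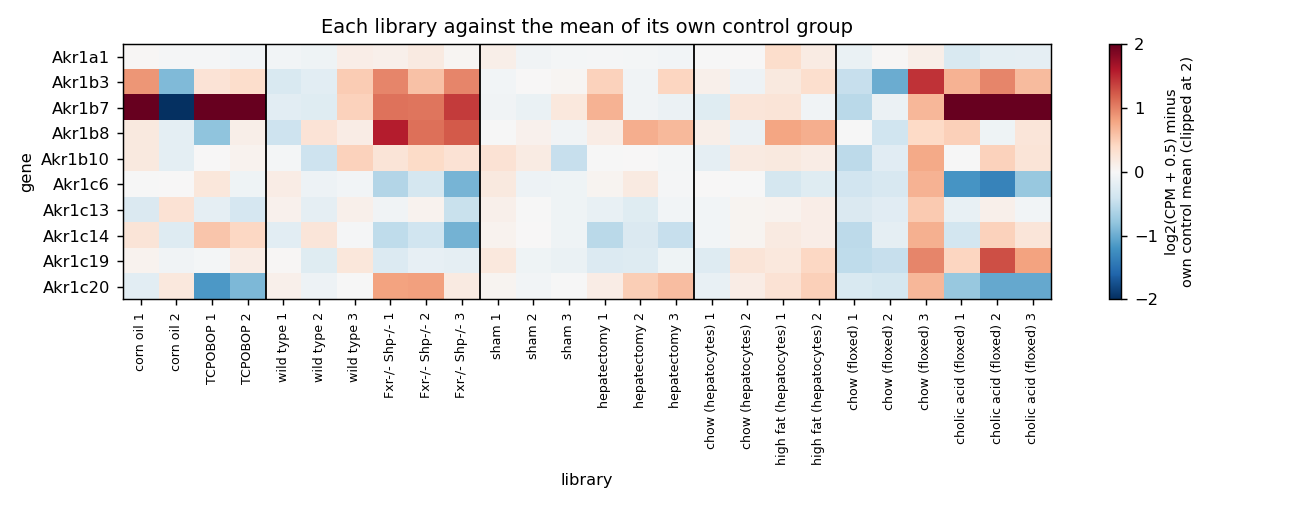
Deviation of each library from the mean of its own control group in log2(CPM + 0.5), for the 10 members (rows) and 26 libraries (columns), clipped at 2; black lines separate experiments. The corn oil pair is split in Akr1b7, and floxed chow library 3 is the highest of its group in all 10 members.

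Genes of the connected pathways gave the surroundings of these values. Over all genes tested, 2823 of 13473 were raised and 2618 lowered in the knockout. The shares raised and lowered were 16.4% and 14.3% after hepatectomy, 12.9% and 11.1% on high fat diet, and 2.27% and 2.50% on cholic acid. Counts in the pathway lists below were not tested against these shares. Among 11 other aldo-keto reductases, 6 were tested in the knockout, with 2 raised and 1 lowered and a median of 0.18 beside -0.01 over all genes. Akr1c18, the dehydrogenase that inactivates progesterone, was raised (edgeR adjusted p = 0.00110), at 1, 0 and 0 counts in wild type and 42, 41 and 166 in the knockout; with so few control counts its fitted fold depends on the prior count and is not given. Akr1d1, the steroid reductase that saturates the ring of bile acid precursors, was raised by 0.68 ± 0.15. Akr1c12 was lowered at -0.29 ± 0.09. After hepatectomy 4 of 7 were lowered and the rest not called (median -0.63 beside 0.01), led by Kcnab1 at -1.87, Akr7a5 at -0.66 and Akr1d1 at -0.64. On high fat diet 2 of 6 were raised (median 0.11 beside 0.01), Kcnab1 by 2.43 and Akr1d1 by 1.34. On cholic acid the 4 tested had adjusted p of 0.270 or more by edgeR (median -0.14).

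The polyol and fructose pathway, which Akr1b3 opens, had 5 of 6 genes lowered after hepatectomy, with a median of -0.90 beside 0.01 over all genes. Ketohexokinase Khk was at -1.26 ± 0.16 and the glucose carrier Slc2a2 at -1.05 ± 0.16 (edgeR adjusted p = 0.00102 and 0.00219). Akr1b3 itself was not called there. In the knockout 1 of 6 was raised and 1 lowered (median 0.05), with the fructose carrier Slc2a5 at -2.75 and Slc2a2 at 0.39. On high fat diet 1 of 6 was raised, Slc2a5 by 0.67 (median 0.33), and on cholic acid the smallest adjusted p of the 6 by edgeR was 0.0627, that of Slc2a5 (median -0.31).

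The glucuronate and ascorbate pathway around Akr1a1 had 5 of 8 genes raised and 1 lowered in the knockout (median 0.42 beside -0.01). Inositol oxygenase Miox, with 3 to 4 counts per wild-type library, rose by 3.39 ± 0.70, the gluconolactonase Rgn by 1.25 ± 0.10 and UDP-glucose dehydrogenase Ugdh by 0.88 ± 0.14 (edgeR adjusted p = 0.00524, 3.49e-05 and 0.00131). On cholic acid 2 of 7 were raised and 2 lowered (median -0.12 beside 0.01). Gulo, the last enzyme of ascorbate synthesis, was lowered at -1.52 ± 0.21, while Ugdh rose by 1.37 ± 0.26 and Cryl1 by 1.16 ± 0.22. After hepatectomy 4 of 7 were lowered (median -0.33), and on high fat diet 3 were raised and 1 lowered of 7 (median 0.27), with Cryl1 at 0.95 and -0.76 after hepatectomy.

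Short-chain carbonyl reductases, which act on substrates similar to those of the family, had 2 of 9 raised and 5 lowered in the knockout (median -0.37 beside -0.01). Cbr3 rose by 2.49 ± 0.27 and Cbr1 was at -1.39 ± 0.13. On cholic acid both were raised, Cbr3 by 3.75 ± 0.67 and Cbr1 by 2.04 ± 0.31, the 2 called of 9 (median 0.03). The knockout effect minus the cholic acid effect on Cbr1 was -3.43 ± 0.37 (edgeR adjusted p = 0.000119). After hepatectomy 4 of 8 were lowered (median -0.33), and on high fat diet 1 of 9 was raised, Dhrs7 by 0.73 (median 0.16).

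Enzymes of ketosteroid reduction that work beside the Akr1c members had 2 of 11 raised and 5 lowered in the knockout (median -0.01). Hsd3b5 was lowered (edgeR adjusted p = 0.000302), with 137, 229 and 47 counts in wild type and 1, 0 and 1 in the knockout, too few for a fold, and Hsd3b2 was at -3.08 ± 0.28. Hsd3b5 was lowered as well on high fat diet (-4.27 ± 0.24) and in cholic acid liver (-5.98 ± 0.58). On cholic acid 1 of 12 was raised, Hsd17b6 by 2.27 ± 0.37, and 3 lowered (median -0.06). After hepatectomy 2 of 12 were raised and 6 lowered (median -0.22), and on high fat diet 3 were raised and 3 lowered (median 0.13). Under TCPOBOP, where edgeR called no gene at all, the medians of the 6 pathway and regulator lists ran from -0.68 for the polyol and fructose pathway to 0.06 for the receptors and regulators.

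Among receptors and regulators, the knockout had 1 of 10 raised and 5 lowered (median -0.41). Apart from Nr0b2 and Nr1h4, the CAR gene Nr1i3 was lowered at -1.04 ± 0.13. On cholic acid Nr0b2, a target of FXR, was raised by 1.96 ± 0.27 and the PXR gene Nr1i2 by 0.68 ± 0.15, while Nr1h4 was lowered at -1.01 ± 0.19 (median of the 10 genes 0.20). After hepatectomy Nr0b2 was raised by 1.99 ± 0.38 with 2 raised and 4 lowered (median -0.12), where Akr1b7 was not called.

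The genes most like each member were ranked by Pearson's r in log2(CPM + 0.5) over 26 libraries, after subtracting the mean of the own control, among 12181 genes. Libraries of an experiment share that mean, and the values are a description. They include the library labelled corn oil 1 and floxed chow library 3, and were not computed without them. For Akr1b7, corn oil 1 and 2 lay 2.97 above and 2.97 below their mean. The cholic acid libraries lay 5.12, 7.08 and 5.24 above the mean of their controls and the TCPOBOP libraries 3.07 and 2.54. These libraries weigh most in each r of Akr1b7. For Akr1b3 and Akr1b10, floxed chow library 3 lay 1.45 and 0.75 above the mean of its group. Akr1b7 was most like Prom1 (r = 0.963), Cds2 (0.933) and Ephx1 (0.928), the microsomal epoxide hydrolase. Akr1b8 was most like Wwtr1 (0.917), Pea15a (0.916) and Arl4c (0.893). Among the 3 genes most like Akr1c6 were Tspan31 (0.929) and Ciao2b (0.917), and Akr1c20 was most like Ces2e (0.883), Dusp22 (0.881) and Dhrs7b (0.878). The lowest leading value was that of Akr1c13 with Cd99l2 (0.822). Between members, the highest r was that of Akr1b3 with Akr1b10 (0.719), and the lowest that of Akr1b7 with Akr1c20 (-0.655), followed by Akr1b7 with Akr1c6 (-0.622).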

How the data were processed

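RNA was sequenced in 26 mouse liver libraries prepared with a stranded mRNA kit, per the labels' protocols. The authors deposited 1 table of raw read counts per gene on GRCm38, made with STAR 2.4.2a and HTSeq after bcl2fastq 2.17.1.14, Trimmomatic and Picard 1.119, per the submitters' processing notes; the annotation and the strand setting of counting are not given in the sources used here. Of 47643 gene identifiers, 47224 matched a symbol. The 5 summary lines (reads in no feature, ambiguous or not uniquely aligned) were left out of library sizes; they include the 16.6% to 44.1% of reads that were not uniquely aligned.

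Within each experiment, counts that passed filterByExpr were scaled by TMM and tested with edgeR 4.0.16 (quasi-likelihood F test; R 4.3.3, limma 3.58.1), with Benjamini-Hochberg adjustment over all genes and a threshold of 0.05. Effects of 2 experiments were compared by an interaction contrast. SE is the absolute log2 fold change over the square root of F, and intervals are 95%. Levels are CPM with TMM over all 26 libraries, per kb of GENCODE M21 exon union where genes are compared. DESeq2 1.42.0, other filters and scalings, 1 fit over all libraries, a replicate block and leaving out each library were alternatives. The tests were checked, for some comparisons, on simulated data with the same spread for every gene. That spread was below the common variation fitted under TCPOBOP (24.7%) and for the knockout against cholic acid (21.2%). The check therefore does not cover the spread in those data. The floor is 3 counts; floors cover counting error only. Depth was 13949059 to 70367874 reads in genes.

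All 10 members are described in every comparison; from each pathway list, at most 3 called genes with the largest absolute change are named per comparison, and for each member the 3 most alike genes were ranked. A few genes that these rules select are not reported here. Members and lists were chosen with earlier results of these data known.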

Additional observations from a re-analysis of the deposited data

How the results depend on the processing

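The number of members called was 0 under TCPOBOP and 1 with DESeq2's Wald test; 6 in the knockout and 3 with all 26 libraries in 1 fit, where Akr1b3, Akr1b7 and Akr1c14 were not called; 2 after hepatectomy and 0 with all 26 libraries; 2 on high fat diet and 1 with all 26 libraries; and 1 on cholic acid and 3 with DESeq2's Wald test, 3 without a filter on low counts and 3 with all 26 libraries. The cause was not tested. Leaving out 1 library at a time gave 0 to 5 members under TCPOBOP, 4 to 6 in the knockout, 1 to 3 after hepatectomy, 0 to 2 on high fat diet and 1 to 4 on cholic acid. It gave 2 to 4 for the knockout against cholic acid and 2 to 6 for hepatectomy against cholic acid. DESeq2 size factors and a mean count of at least 10 changed no count of called members. With other settings than leaving out a library, counts over all genes moved by more than 1.5 times under TCPOBOP (0; 109 with DESeq2's Wald test and 9 with all 26 libraries), on cholic acid (600; 1445 with DESeq2's Wald test, 955 without a filter and 3132 with all 26 libraries), on high fat diet (3333; 1735 with all 26 libraries), for the knockout against cholic acid (1939; 2991 with all 26 libraries) and for hepatectomy against cholic acid (1820; 2749 with all 26 libraries). With 1 library left out they moved that far under TCPOBOP (1233 without the library labelled corn oil 1, 413 without corn oil 2), after hepatectomy (4225; 2554 without sham 2, 2575 without sham 3), on high fat diet (1141 and 1793 without high fat library 1 or 2), on cholic acid (189 to 298 without any library but floxed chow 3, and 1345 without that one) and for hepatectomy against cholic acid (1089 without sham 2, 1171 without sham 3).

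Replicate numbers are shared between groups, and the main tests treat the libraries as unpaired. On cholic acid the deviations of same-numbered libraries correlated at 0.118, 0.139 and 0.0896, and each library correlated best with its own number. The correlation was 0.112 under TCPOBOP and 0.125 on high fat diet. With 2 libraries per group, different numbers give the same value with a minus sign. It was -0.182, -0.0275 and -0.00982 in the knockout, and -0.0740, 0.0990 and -0.0129 after hepatectomy. These values do not settle whether libraries were paired. With the replicate block the number of members called was 0 under TCPOBOP, 6 in the knockout, 1 after hepatectomy (Akr1c20 not called, adjusted p = 0.0535), 2 on high fat diet (Akr1b8 and Akr1c20 in place of Akr1b8 and Akr1c6) and 2 on cholic acid (Akr1b7 and Akr1c6). Groups of 2 or 3 libraries limit the precision for each member. Counts of few reads limit it further for Akr1b7 and Akr1b10 in hepatocytes and in floxed chow liver, and for Akr1b8 in chow hepatocytes. In wild-type liver they do so for Akr1b3, Akr1b8 and Akr1b10.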
